A study of Mus musculus with 9 samples.

Results

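The 4 Hox clusters of the mouse were examined for RNA sites of Polycomb repressive complex 2 (PRC2). Each cluster was taken as a fixed interval of the mouse build mm9, and every peak with its summit inside was counted on both strands. HoxA was chromosome 6 from 52100000 to 52215000, HoxB chromosome 11 from 96050000 to 96235000, HoxC chromosome 15 from 102745000 to 102870000, and HoxD chromosome 2 from 74500000 to 74610000. Together they held 10 of the 49266 peaks of the series. The intervals stand for 38 Hox genes. HoxA has 10 of them (Hoxa2, Hoxa3, Hoxa4, Hoxa5, Hoxa6, Hoxa7, Hoxa9, Hoxa10, Hoxa11 and Hoxa13). HoxB also has 10 (Hoxb1, Hoxb2, Hoxb3, Hoxb4, Hoxb5, Hoxb6, Hoxb7, Hoxb8, Hoxb9 and Hoxb13). HoxC has 9 (Hoxc4, Hoxc5, Hoxc6, Hoxc8, Hoxc9, Hoxc10, Hoxc11, Hoxc12 and Hoxc13), and HoxD has 9 (Hoxd1, Hoxd3, Hoxd4, Hoxd8, Hoxd9, Hoxd10, Hoxd11, Hoxd12 and Hoxd13). Values are given per cluster, because peaks could not be placed in single genes without an annotation of the same build.

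Peaks came from dCLIP, in which a tagged protein is crosslinked to RNA by UV light, captured on streptavidin beads, and the RNA fragments bound to it are sequenced. The cells were the female mouse embryonic stem cell line EL 16.7, a CAST/Ei x 129/Sv/Jae hybrid, differentiated for 7 days. All carried the biotin ligase BirA. EZH2 libraries came from cells stably expressing Avi-GFP-mEzh2 (replicate 1 from clone 4A, replicate 2 from clone 5A), and SUZ12 libraries from cells expressing Avi-GFP-mSuz12 (replicate 1 from clone 8E, replicate 2 from clone 8H). Each library is therefore 1 clone of an added, tagged protein. The mock library, from empty-vector cells, and the 4 PRO-seq libraries were not analysed here, so no untagged background stands beside these counts.

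Hox genes encode homeodomain transcription factors that give embryonic cells their position along the body axis. Their order along a cluster follows the order in which they are used along that axis, from Hoxb1 in the hindbrain to Hoxa13 and Hoxd13 in the distal limb and posterior body. In embryonic stem cells the clusters are textbook Polycomb targets: PRC2, through its methyltransferase EZH2 and its core subunit SUZ12, places the repressive mark H3K27me3 over them. That mark sits on chromatin, whereas dCLIP reads RNA contacts. Several noncoding RNAs also arise in the clusters, such as Hotair, which is transcribed against the direction of the HoxC genes and is known for reported contacts with PRC2.

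The library lists held 10468 and 13267 peaks for EZH2 and 11580 and 13951 for SUZ12. Per library this is 3.97 to 5.29 peaks per Mb of the assembled chromosomes 1 to 19 and X. Peak lists carry no read depth and no amount of RNA, so fewer transcripts and fewer contacts per transcript cannot be told apart.

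The Hox clusters held as many RNA peaks as their length would give at the mean density of the libraries, 2.5 per library found against 2.5 ± 0.32 (SD, n = 4). EZH2 replicate 1 had 5 peaks (exact 95% Poisson interval 1.62 to 11.7, counting error only), EZH2 replicate 2 had 2 (0.242 to 7.22), SUZ12 replicate 1 had 1 (0.0253 to 5.57) and SUZ12 replicate 2 had 2. EZH2 replicate 1, the shortest list, thus gave as many Hox peaks as the other 3 libraries together.

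HoxB was the only cluster with a peak in every library, with 2 in each EZH2 library and 1 in each SUZ12 library. HoxC had 2 peaks, both in EZH2 replicate 1. HoxA had 1 peak, also in EZH2 replicate 1, and HoxD had 1, in SUZ12 replicate 2. A peak in every library was found in 18.3% of all genome windows of the length of HoxB, 185 kb, against 11.6% at the length of HoxA, 12.6% at that of HoxC and 11% at that of HoxD. These windows were laid end to end over chromosomes 1 to 19 and X and include assembly gaps and gene-poor sequence.

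**Figure D1:**
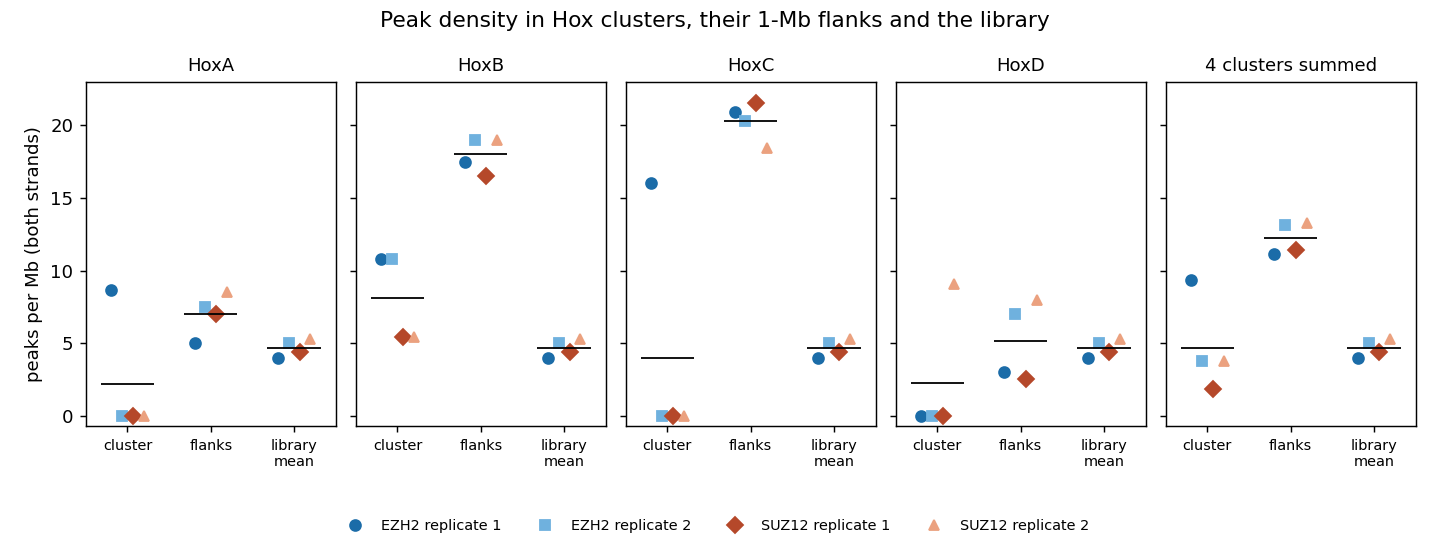
Peaks per Mb (y axis, both strands) in each Hox cluster, in its 1-Mb flanks and over the whole library, with a point for each library and a line at the mean of the 4 libraries. In HoxB and HoxC all 4 cluster points lie below all 4 flank points, while HoxA has 1 point, from EZH2 replicate 1, and HoxD 1 point, from SUZ12 replicate 2, above their flank means.

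The clusters were next set against the 1 Mb on either side, which shares the chromosomal neighbourhood. In the 4 clusters summed, density was 9.35 and 3.74 peaks per Mb in EZH2 replicates 1 and 2 and 1.87 and 3.74 in SUZ12 replicates 1 and 2. Flank density in the same order was 11.1, 13.1, 11.4 and 13.2 peaks per Mb. The clusters were thus lower in 4 of 4 libraries, although the values of EZH2 replicate 1 lay close together. The mean log2 ratio of cluster to flank density, with 0.5 added to each number of peaks, was -1.29 ± 0.82 (SD, n = 4), a 2.45-fold lower density. The exact sign-flip permutation test over libraries gave a two-sided p of 0.125, the smallest that 4 libraries allow, so the test could not pass 0.05 (0.208 after Benjamini-Hochberg adjustment over 5 tests). Averaging the log2 ratio over clusters, which gives sparse HoxA and HoxD the same weight as the others, moved the value to -0.65.

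Most of this gap lay in HoxC and HoxB. HoxC flanks held 34 and 33 peaks for EZH2 and 35 and 30 for SUZ12 (replicate 1 first, here and in what follows), and at that density the cluster would hold 2.54 ± 0.166 peaks (SD, n = 4); it held 2, 0, 0 and 0. The flank after HoxC was cut short by the end of chromosome 15. HoxB flanks held 35, 38, 33 and 38 peaks, which corresponds to 3.33 ± 0.227 peaks in the cluster against 2, 2, 1 and 1 found. In both clusters every library lay below its flank density.

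HoxA and HoxD lay in poorer surroundings, where 0 or 1 peak is what the flanks would give. HoxA flanks held 10, 15, 14 and 17 peaks, or 0.805 ± 0.169 in a stretch as long as the cluster. HoxD flanks held 6, 14, 5 and 16, or 0.564 ± 0.306. By density with nothing added, both clusters were below their flanks in 3 libraries and above in 1. With 0.5 added, the mean log2 ratio was -0.32 ± 1.09 in HoxA and 0.32 ± 0.67 in HoxD (SD, n = 4). The HoxD values were 0.48 and -0.67 for EZH2 and 0.72 and 0.72 for SUZ12. In EZH2 replicate 1 and SUZ12 replicate 1 HoxD held 0 peaks, so their positive values come from the added 0.5. By density with nothing added, only SUZ12 replicate 2 went the opposite way to the sum. No difference from the flanks was detectable at these numbers of peaks.

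A low number of peaks is common in these lists. No more peaks than in the cluster were found in 69.4% of all windows of HoxA length, 81.6% of HoxB length, 73.9% of HoxC length and 70.1% of HoxD length. Among windows with flank peaks in every library, density was below the flanks in 4 of 4 libraries in 50.7% of windows of HoxB length and in 54.8% of HoxC length. It was below in at least 3 libraries in 70.4% of windows of HoxA length and 70.6% of HoxD length. Some windows had flanks at least as dense as those of the cluster they were matched to in length, a comparison added after the data were seen. In such windows, no more peaks than in the cluster were found in 18.8% of 287 windows for HoxC, 24.7% of 365 for HoxB, 37.2% for HoxA and 45.6% for HoxD. Counts as low as those of the Hox clusters were thus found in many windows, also beside flanks as dense as theirs.

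Against the mean density of the library, the log2 ratio of the clusters was 0.11 ± 0.88 (SD, n = 4; exact sign-flip permutation test, two-sided p = 1), and 3 of 4 libraries were below their own mean. HoxB alone lay above the library mean in 4 of 4 libraries, at 8.11 ± 3.12 peaks per Mb (SD, n = 4) against 4.67 ± 0.60. The sign of the summed ratio rested on EZH2 replicate 1, as the value without it was -0.31, and on HoxB, with -0.60 without that cluster. The summed flanks, by contrast, were above the library mean in each library, with a log2 ratio of 1.40 ± 0.07 that was not tested. By cluster, the mean log2 ratio of the flanks was 0.62 for HoxA, 1.97 for HoxB, 2.15 for HoxC and 0.05 for HoxD. The HoxD flanks were below the library mean in EZH2 replicate 1 (-0.29) and SUZ12 replicate 1 (-0.67).

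**Figure D2:**
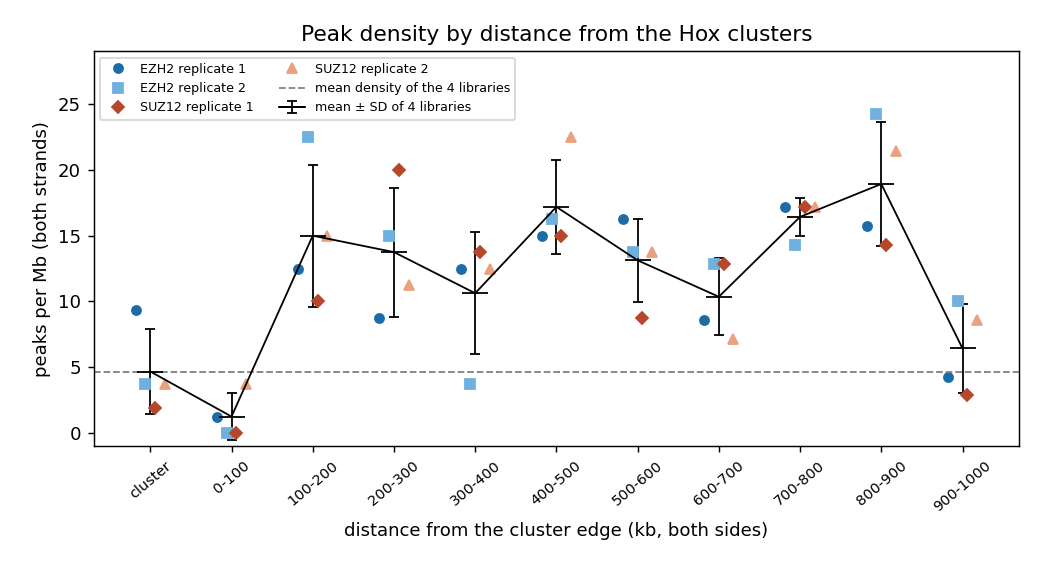
Peaks per Mb (y axis, both strands) in the 4 clusters summed and in 100-kb steps from the cluster edges (x axis, both sides joined), with a point for each library, the mean ± SD of the 4 libraries in black and the mean library density dashed. The first step outside the clusters has the lowest mean, 1.25 peaks per Mb. The second step has 15.0, with most of its peaks before HoxB and after HoxC.

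The first 100 kb outside the clusters held 4 peaks over all libraries, with 1.25 and 0 peaks per Mb for EZH2, 0 and 3.75 for SUZ12, and a mean of 1.25 ± 1.77 (SD, n = 4). From 100 to 200 kb the mean was 15.0 ± 5.40 peaks per Mb, and every library there exceeded every library in the first 100 kb, a difference that was not tested. Most peaks of this second step lay before HoxB (5 and 7 for EZH2, 4 and 6 for SUZ12) and after HoxC (5 and 8, 4 and 3). After HoxB, before HoxC and after HoxD no library had a peak at that distance, so the rise was not shared by all clusters. Steps cut by the end of chromosome 15 were left out. Of the 8 steps next to a cluster, 1 on each side, 5 had no peak in any library, beside 61.5% of all 100-kb windows of the genome. The number of empty steps was thus near that of the genome, while the mean density of the 8 steps was below the library mean of 4.67 ± 0.60 peaks per Mb (not tested).

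Around HoxA, the nearest peak of any library lay 154 kb before and 181 kb after the interval, so that the peak inside was the only one in 450.0 kb. The 2 HoxC peaks were the only ones in 445 kb, with the nearest others 205 kb before and 114 kb after. HoxD had its nearest peaks 83.2 kb before and 66.1 kb after. At HoxB the stretch was one-sided, with a peak 34.6 kb before the interval and none for 227 kb after it. No more peaks were found in 42.5% of genome windows as long as the stretch around HoxA. The share was 62.9% for HoxB, 48.4% for HoxC and 54.5% for HoxD. The limits of each stretch are set by the nearest peaks themselves, whereas the windows have fixed limits, so the shares are a description. In the RefSeq gene order (GRCm38, used for names only), the protein-coding neighbours of the Hox genes are Skap2 and Evx1 at HoxA, Ttll6 and Skap1 at HoxB, Calcoco1 and Smug1 at HoxC, and Evx2 and Mtx2 at HoxD. Evx1 and Evx2 are homeobox genes that adjoin the clusters.

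**Figure D3:**
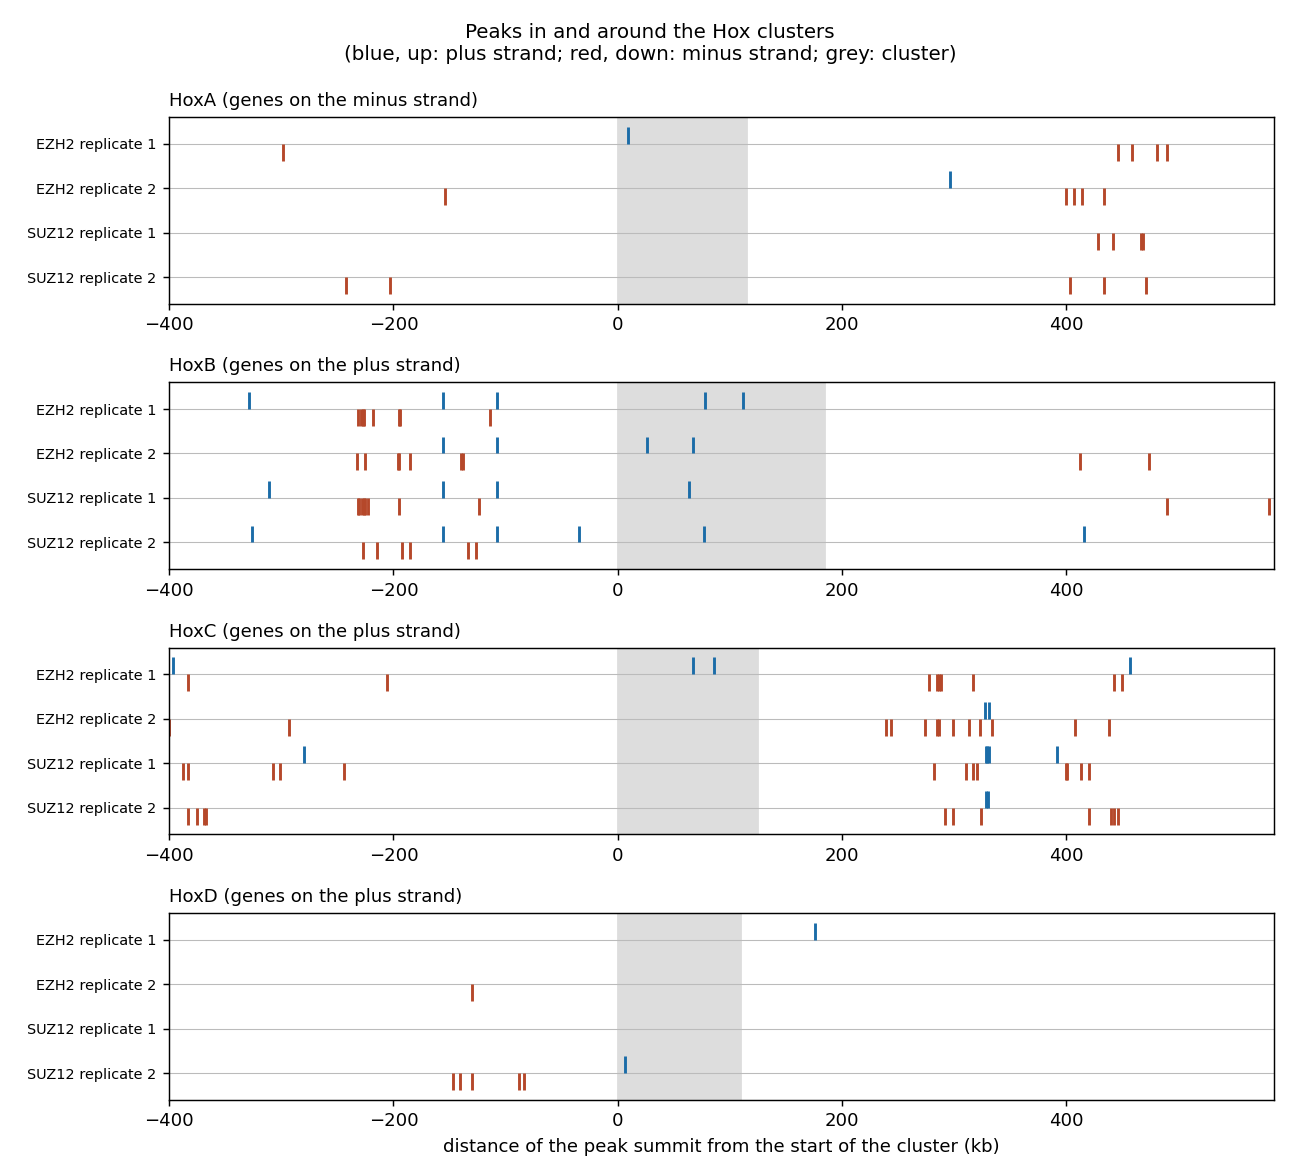
Peak summits by distance from the start of each cluster (x axis, kb), with a row for each library, plus-strand peaks as blue ticks pointing up, minus-strand peaks as red ticks pointing down, and the cluster shaded. All 10 ticks inside the shaded clusters are blue, and those of HoxB between 63.2 and 77.9 kb include 1 from each library.

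All 10 Hox peaks lay on the plus strand of the deposited lists. Whether that is the strand of the RNA or of its complement is not given in the sources used here, so directions relative to genes assume that it is the strand of the RNA. The flanks leaned the other way, with 147 plus-strand and 226 minus-strand peaks (39.4% plus), and whole libraries had 50.7 to 53.5% on the plus strand. At flank density the clusters would have held 15.9 minus-strand peaks over the 4 libraries, and 0 were found. By cluster, flank density would give 1.96 minus-strand peaks in HoxA, 8.33 in HoxB, 5.85 in HoxC and 1.43 in HoxD. No bound on the fold difference is drawn from the count of 0. Such a bound takes the peaks as independent of each other, which was not tested. On the plus strand, 10.3 peaks would match flank density and 10 were found. In the sum the gap to the flanks thus lay on the minus strand, but HoxC had fewer peaks on the plus strand as well, 2 against 4.31 at flank density, while HoxB had 6 against 5.00. This split was noticed in the data and was not tested. Among windows with minus-strand flank peaks in every library, many had no minus-strand peak inside in any library. The share was 64.7%, 55.7%, 63.1% and 65.5% at the lengths of HoxA, HoxB, HoxC and HoxD. These windows were not matched to the minus-strand flank density of the clusters. For low counts of both strands, such matching lowered the share from 81.6% to 24.7% for HoxB and from 73.9% to 18.8% for HoxC.

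RefSeq places the HoxB, HoxC and HoxD genes on the plus strand and the HoxA genes on the minus strand, for the genes with a promoter entry (9 in HoxA, 3 in HoxB, 1 in HoxC and 9 in HoxD). By this, 9 of 10 peaks lay on the strand of the Hox genes, or 1 of 10 if the lists give the complement. As listed, these were 4 of 5 in EZH2 replicate 1 (80%, exact 95% binomial interval 28.4 to 99.5%), 2 of 2 in EZH2 replicate 2, 1 of 1 in SUZ12 replicate 1 and 2 of 2 in SUZ12 replicate 2. The mean share exceeded 50% by 45.0 percentage points in an exact sign-flip permutation test over libraries (two-sided p = 0.125, the smallest possible, adjusted p = 0.208). Read as the complement, the same value is -45.0, so the direction depends on the meaning of the listed strand. The exception was the HoxA peak, which lay against the direction of the HoxA genes, on the strand that also carries the noncoding RNA Hoxa11os. In HoxC, the minus strand, opposite to the genes and the strand of Hotair, had 0 peaks in every library. At flank density 5.85 would be found over the 4 libraries. No minus-strand peak was also found in 63.1% of windows of HoxC length with minus-strand flank peaks in every library. Those windows were not matched to the flank density of HoxC. If the lists give the complement, the 2 HoxC peaks of EZH2 replicate 1 would lie on the strand of Hotair. Peaks were not assigned to single genes, exons or introns, as no mm9 annotation was used here.

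The HoxB peaks formed the densest group. In the order of the chromosome, they lay at 96076231 to 96076404 (EZH2 replicate 2, false discovery rate (FDR) 0.000648 in the deposited list), 96113093 to 96113217 (SUZ12 replicate 1, 0.000373) and 96116793 to 96116994 (EZH2 replicate 2, 0.00456). Then followed 96127128 to 96127286 (SUZ12 replicate 2, 0.00469), 96127794 to 96127998 (EZH2 replicate 1, 9.63e-05) and 96161387 to 96161525 (EZH2 replicate 1, 0.00829). The middle 4 peaks, 1 from each library, fell within 14.9 kb. Of 354062 stranded windows of that length laid over the genome, 0.34% held a peak of every library. This stretch was singled out after its values were seen, and its limits are set by the peaks themselves, so the share is a description. None of these peaks overlapped, and the closest pair, from EZH2 replicate 1 and SUZ12 replicate 2, was 507 bp apart.

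The strongest Hox peak lay in HoxD, on chromosome 2 at 74506601 to 74506758, 158 bp long, in SUZ12 replicate 2. Its FDR was 9.69e-07, which placed it in the best 4.90% of the plus-strand list of that library. The nearest plus-strand peak of another library was 169 kb away. The HoxA peak lay on chromosome 6 at 52108868 to 52109055 (FDR 0.00334). The HoxC peaks lay on chromosome 15 at 102811706 to 102811893 (FDR 0.00108) and 102831120 to 102831218 (FDR 0.00892). The last of these was among the weakest peaks of its list, at 95.9% of the ranking by FDR.

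As a group the Hox peaks were ordinary in strength and size. Their median rank by FDR was 52.0% of their lists, from 4.90 to 95.9%, against 48.5% for flank peaks. Their median width was 166.5 bp, from 99 to 205 bp, against 158 bp in the flanks and 156 bp over all peaks.

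No Hox peak was found again in another library. Of 10 peaks, 0 were overlapped by at least 1 bp on the same strand in any of the other 3 libraries (exact 95% binomial interval 0 to 30.8%). In the flanks 87 of 373 peaks were (23.3%, 19.1 to 28.0%), and over all peaks 17.4%. By library, the share was 0% in the clusters in each case, against 23.5 and 24.0% in EZH2 flanks and 28.7 and 17.8% in SUZ12 flanks. The mean difference from all peaks of the library was -17.5 ± 1.84 percentage points (SD, n = 4; exact sign-flip permutation test, two-sided p = 0.125, the smallest possible, adjusted p = 0.208). Because every library holds between 1 and 5 Hox peaks, the test counts a share of 0 of 1 as fully as 0 of 5. The interval over the 10 peaks includes the 17.4% of all peaks, but it takes the peaks as independent and leaves out the spread between libraries. Whether fewer peaks recur in the clusters could therefore not be decided. Among peaks no stronger than the HoxD peak, 15.3% recurred over all lists.

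**Figure D4:**
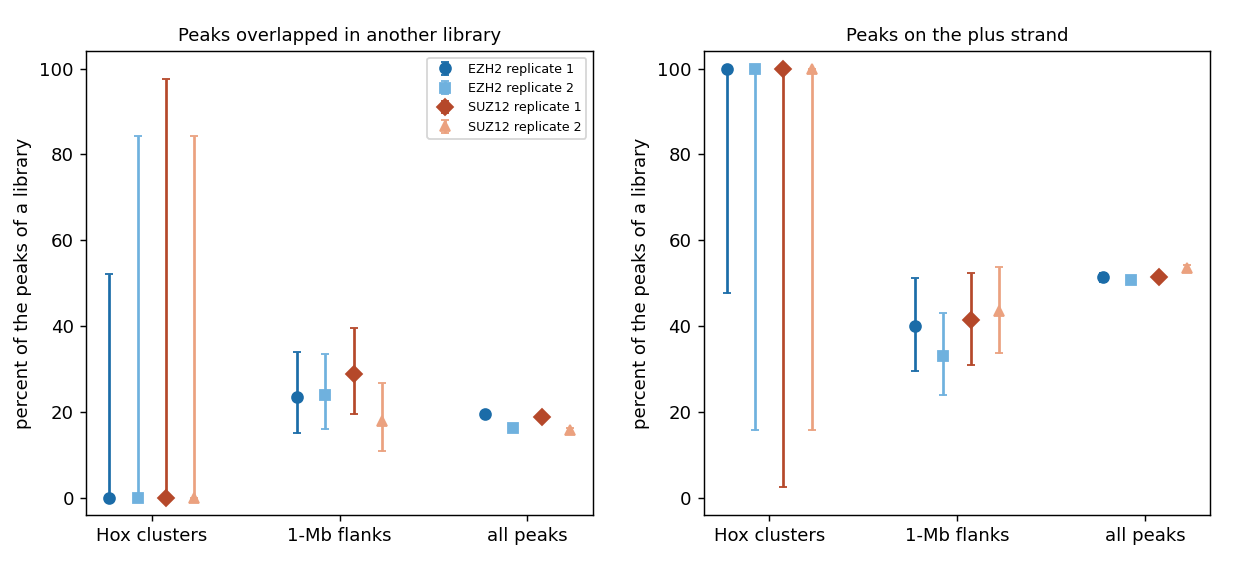
Percent of the peaks of a library (y axis) that were overlapped on the same strand in another library (left) or lay on the plus strand (right), in the Hox clusters, their flanks and the whole list, with a point for each library and exact 95% binomial intervals. All Hox points are at 0% on the left and at 100% on the right, and their intervals are wide because they rest on 1 to 5 peaks.

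Sites found in several libraries lay in the flanks. Merging overlapping peaks by strand gave 323 sites in the flanks, of which 4 were found in 4 libraries, 5 in 3 and 28 in 2, while the 10 Hox peaks gave 10 sites with 1 library each. The leading flank site of HoxB lay 156 kb before the cluster, on the plus strand at 95893934 to 95894279, and its FDR was 2.43e-17 and 2.20e-19 for EZH2 and 6.42e-12 and 2.85e-17 for SUZ12. That of HoxD lay 794 kb before the cluster on the plus strand, at 73705866 to 73706162, where the weakest of its 4 FDR values was 6.30e-11. At HoxA and HoxC the leading flank sites were found in 3 libraries. The HoxA site was 685 kb before the cluster, on the minus strand at 51415115 to 51415290 and its weakest FDR was 0.00469. The HoxC site was 383 kb before the cluster, on the minus strand at 102361521 to 102361962 and its weakest FDR was 0.00127.

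Whether the clusters differ between the proteins was asked from the share of Hox peaks in each list. Per 10000 peaks, EZH2 had 4.78 and 1.51 Hox peaks, a mean of 3.14 ± 2.31 (SD, n = 2), and SUZ12 had 0.864 and 1.43, a mean of 1.15 ± 0.403. The difference of 1.99 was smaller than the spread between the EZH2 clones (exact permutation test, two-sided p = 0.333, the smallest that 2 clones each allow, adjusted p = 0.417). It rested on EZH2 replicate 1: the difference was 0.359 without that library and 3.63 without EZH2 replicate 2.

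In the wider surroundings no difference between the proteins passed the test. In the fit over 846 windows of 1 Mb per strand, limma called 0 windows (0% of those tested) at an adjusted p of 0.05, and 38 had an unadjusted p below it. Of the 8 windows that hold a Hox cluster, 5 had a mean of at least 5 peaks and were tested, and 0 of these had an unadjusted p under 0.05. The smallest, 0.103, belonged to the minus strand of chromosome 11 from 96000001 to 97000000, where EZH2 had 7 and 9 peaks and SUZ12 6 and 4. Its log2 difference, SUZ12 minus EZH2, was -0.75 ± 0.46 (SE; limma adjusted p = 0.986). The plus strand of the same window held 6, 4, 6 and 5 peaks, at 0.04 ± 0.61. The HoxC window, chromosome 15 from 102000001 to 103000000, held 10, 8, 9 and 6 plus-strand peaks, with a difference of -0.37 ± 0.44. Its minus strand held 10, 8, 8 and 8 peaks, at -0.26 ± 0.44. The minus strand of the HoxA window, chromosome 6 from 52000001 to 53000000, had 5, 6, 5 and 6. Its plus strand and both strands of the HoxD window, chromosome 2 from 74000001 to 75000000, had too few peaks to test. The HoxD window held at most 1 peak per library on each strand, except for 5 minus-strand peaks in SUZ12 replicate 2.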

How the data were processed

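The deposited data were 8 peak lists, 1 per dCLIP library and strand, with chromosome, start, end, strand, summit and FDR of each peak. The FDR, a q-value of at most 0.0108, was assigned by the authors' caller, and peak names carry the prefix of PeakRanger, per the file contents. The settings and the control of the caller are not given in the sources used here. Earlier steps, per the submitters' processing notes, involved TopHat2 2.0.8 and build mm9, with bedtools 2.17.0, Trim Galore 0.3.3 and SAMtools 0.1.18 also named. Coordinates are in mm9, counted from 1.

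The gene members, intervals and lists were chosen with earlier results of these data known. Peaks were placed by summit. Named sites were all Hox peaks, being fewer than 40, the flank site of each cluster found in most libraries, and the 1-Mb windows holding a cluster. Gene lists of Hox partners and other Polycomb targets need an mm9 annotation and were not analysed here. Single values were compared by exact permutation tests over libraries, adjusted over 5 tests. Peaks in 1-Mb windows per strand, taken per 10000 peaks of the library with 0.5 added to each window and 1 to each total, were put on the log2 scale and tested with limma, without a replicate block. Alternatives covered peak placement, FDR, cluster bounds, flank size, pseudocount, overlap rule, scaling, window size, the replicate block and leaving out each library or cluster. The scripts were tested on simulated data. Software was SciPy 1.17.1, pandas 2.3.3 and NumPy 2.4.6 under Python 3.11.15, limma 3.58.1 under R 4.3.3, and GenomeInfoDb 1.38.1 for chromosome lengths. The background windows, the HoxB stretch, the complement reading of the strand, the plus-strand split and the alternative limited to peaks no stronger than the strongest Hox peak were added after the data were seen. The 100-kb steps from the cluster edges and the stretches around the clusters were not among the planned comparisons either. Gene names and strands came from RefSeq tables of GRCm38.p6, in which all 38 Hox genes matched by symbol.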

Additional observations from a re-analysis of the deposited data

How the results depend on the processing

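The lower density of the clusters against their flanks kept its sign in 16 of 16 alternatives (-1.74 to -0.65 on the log2 scale), and the share on the strand of the Hox genes in 12 of 13, the exception being -45.0 percentage points when the listed strand is read as the complement of the RNA, a reading added after the data were seen. The sharing gap was negative in 11 of 11 alternatives, down to -0.270 percentage points on the opposite strand, where few peaks match anywhere. With a Hox share of 0% the gap can only be negative, so its sign says nothing about robustness. The Hox share of EZH2 minus SUZ12 stayed positive in 11 of 11. None of these tests could pass 0.05. The log2 ratio of the clusters to the library mean turned negative in 4 of 14 alternatives: -0.090 with bounds widened by 10 kb, -0.60 without HoxB, -1.27 when only 100-kb windows with a peak in any library counted as genome, and -0.31 to 0.36 when each library was left out. With the last choice of genome fewer bases enter the mean; the cause of the others was not tested. With the replicate block the difference between proteins was 1.99 per 10000 peaks (exact permutation within 2 pairs, p = 0.5, the smallest possible), and limma with the block called 0 windows. The deviations of same-numbered libraries correlated at 0.117 over 846 windows, and their labels share only a number. In no alternative did limma call a window. Leaving out each library turned the log2 difference of 3 Hox windows: -0.40 to 0.47 for the HoxB plus strand, -0.78 to 0.033 and -0.58 to 0.062 for the HoxC plus and minus strands. With 1 library left for a protein, its spread is assumed to be that of the other. Results on only 10 peaks are limited by their number, and no alternative adds any.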
